A study of Arabidopsis thaliana with 12 samples.

Results

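Transcript assembly joins sequenced reads into loci wherever RNA was seen, whether or not the place carries an annotated gene. The Arabidopsis thaliana RNA-seq tables described here list 9585 such assembled loci, with identifiers that start with XLOC, beside the annotated genes. A separate table of small RNA counts, named xat by its authors, covers 3206 of them. The loci described below are those that the xat table does not hold and that reached a raw RNA-seq count of at least 60 summed over 6 libraries. They number 3263 of the 6379 loci outside that table. They were thus chosen by RNA-seq counts in the same libraries that are compared, through the summed count and through the absence from the xat table.

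The libraries came from seedlings grown on soil and taken at an age of 21 days. Of these, 3 were wild-type Col-0 and 3 carried xrn3-8, a mutant allele of XRN3, and the labels name no treatment. The design text calls the replicates biological. How the allele was made and how many seedlings entered a library are not stated in the labels. RNA was taken as total RNA, depleted of plant ribosomal RNA and made into stranded libraries, per the labels' protocols.

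XRN3 is a nuclear exoribonuclease that degrades RNA from the 5′ end. When a new transcript is cut at its polyadenylation site, the RNA still attached to the polymerase is open to such an enzyme, and its removal is tied to the release of the polymerase. Plants that lack this activity are known for RNA that continues past gene ends, and such RNA can be assembled into loci of its own. The title of the series names termination by XRN3 as the question. Whether a locus lies beside a gene, on its opposite strand or far from any gene cannot be read from the tables, which pair the loci with no position, length or gene name. No sequence of a locus is shown for the same reason.

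The genotype labels were checked on the mutated gene. For XRN3 (AT1G75660), RNA averaged 103 ± 0.37 scaled CPM among the Col-0 libraries. Among the mutant libraries it averaged 43.5 ± 2.94 (SD, n = 3 each), and the difference was -1.24 on the log2 scale (SE 0.08, edgeR adjusted p = 2.73e-06). Scaled CPM are counts per 1000000 nuclear gene counts, after TMM scaling on the nuclear genes. Nuclear gene counts lay between 29227897 and 35922818 per library. The 5 markers of green tissue, among them the Rubisco subunit gene RBCS1A, summed to 24157 to 27366 scaled CPM in Col-0 and to 17377 to 23049 in xrn3-8, with no overlap. The 5 did not move alike, from -1.14 on the log2 scale for LHCB2.1 to -0.12 for LHCB1.3. LHCB1.3 was not called (edgeR adjusted p = 0.603), and xrn3-8 replicate 1 exceeded every Col-0 library for it. The part of these markers in the results on the loci was not tested. The 6 root markers summed to 185 to 294 and 143 to 246 scaled CPM, most of it from PYK10, a glucosidase gene (mean 239 in Col-0 and 166 in xrn3-8, not called). The root stem cell regulator WOX5 was higher in xrn3-8, at 0.112 against 0.580 scaled CPM (edgeR adjusted p = 0.0157), and the root regulators RHD6 and PLT1 had 0 counts in every library. The 9 flower and seed markers summed to at most 11.0 scaled CPM, in Col-0 replicate 3. That library held 102 counts of the seed storage gene CRU3, 72 of CRA1, 42 of the oil body gene OLEO1 and 26 of SESA1, where no other library held more than 4 of any of them. The floral regulator PI rose from 0.337 to 4.12 scaled CPM (edgeR adjusted p = 9.2e-05). The other floral regulators listed did not rise. AG went from 0.421 to 0.084 scaled CPM, AP3 from 0.478 to 0.151 and SEP3 from 0.536 to 0.212. LFY stood at 0.077 and 0.073. SEP3 was not called, and AG, AP3 and LFY had too few counts to be fitted. The part of these root, flower and seed genes in the results was not tested either.

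The loci outside the xat table took a larger share of the reads in xrn3-8. Their counts came to 1.42%, 1.50% and 1.45% of the nuclear gene counts in Col-0 and to 1.84%, 1.76% and 1.78% in xrn3-8. The groups did not overlap, and their means were 1.46% ± 0.038 and 1.80% ± 0.040 (SD, n = 3). After TMM scaling the sum was 15310 ± 591 scaled CPM in Col-0 and 17083 ± 655 in xrn3-8, so the ratio of xrn3-8 to Col-0 was 1.23 for the share and 1.12 for the scaled sum. The xat loci, for comparison, held 0.0493% ± 0.0033 and 0.448% ± 0.061 of the nuclear gene counts. The loci outside the table thus held more reads than the xat loci in both genotypes. No test is given for these shares, because the same counts chose the loci.

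**Figure D1:**
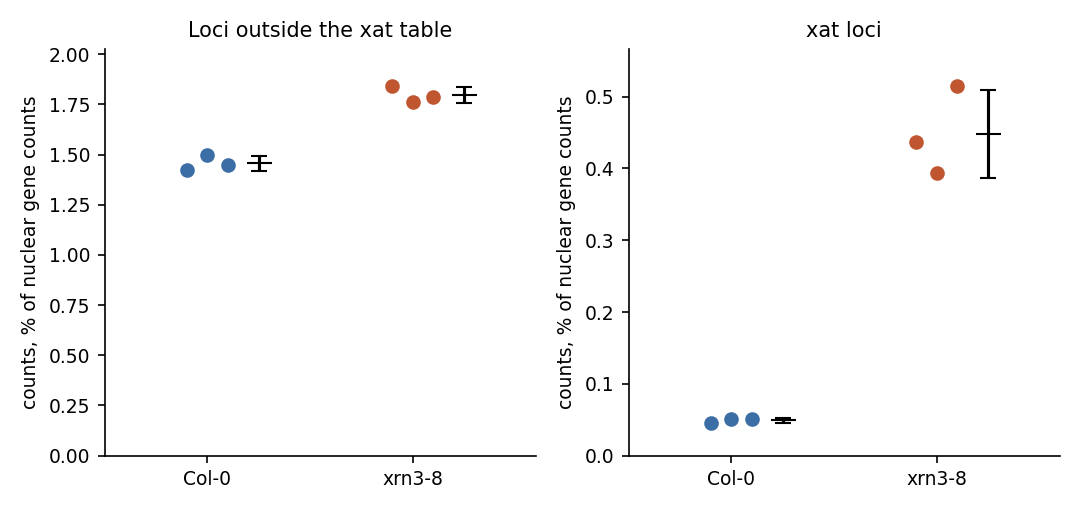
Counts of the loci outside the xat table (left) and of the xat loci (right) as a percentage of nuclear gene counts. Each point is 1 library, and the bar to the right of each group is the mean with its SD over 3 libraries. The left panel spans 1.42% to 1.84% with no overlap between the genotypes, and the right panel rises from 0.0493% to 0.448% on average.

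Reads were spread very unevenly over the 3263 loci. The 10 loci with the most counts held 34.2% of the 3173774 counts, and 24 loci held the first 50% of them. The median locus had a sum of 138 counts over the 6 libraries, against a highest sum of 174142. A mean below 1 scaled CPM was found for 2042 loci (62.6%), while 170 loci reached 10 scaled CPM and 26 reached 100. Counts were present in all 6 libraries for 3169 loci. These are reads per locus and not per length, because locus lengths were not analysed here, so they do not rank transcript abundance.

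The limit of 60 summed counts cut through a continuous range. The 123 loci with sums of 60 to 62 had a median of 19 counts over the Col-0 libraries and 42 over the xrn3-8 libraries. The 119 loci with sums of 57 to 59, just outside, had medians of 18 and 40. In Col-0 the median over all 3263 loci was 0.623 scaled CPM, and in xrn3-8 it was 0.805. The xat loci with the same summed count had medians of 0.0993 and 1.08. A sum of 0 in Col-0 was found for 3 loci outside the xat table and for 195 of 2159 xat loci. All 2159 of these xat loci were called higher in xrn3-8, so the table appears picked for rises in these libraries. Such a choice by itself favours low Col-0 counts at a given summed count, and nothing is read from these differences.

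Most loci outside the xat table had more reads in xrn3-8 than in Col-0, by small amounts. Their log2 fold changes had a median of 0.40 and quartiles of -0.06 and 0.94, and 2356 of 3263 (72.2%) were above 0. Over all 5422 assembled loci fitted the median was 1.15, and over 20501 nuclear genes with the same summed count it was 0.01. With edgeR's quasi-likelihood test and an adjusted p under 0.05, 557 loci (17.1%) were higher and 133 (4.08%) lower in xrn3-8. The adjustment ran over all 5422 fitted loci, of which the 2159 xat loci were all called higher. Those calls raise the raw p that passes, so 0.05 does not bound false calls among the loci outside the table alone. An adjustment over the loci outside the table alone was not made. The number of higher loci fell to between 246 and 371 without any 1 of 5 libraries, xrn3-8 replicate 2 being the exception at 488, and rose to 868 with total counts as the scaling. The same test called 50.1% of all assembled loci higher and 2.45% lower. Among nuclear genes it called 16.6% higher and 17.0% lower. The genes were adjusted on their own, so the raw p that passes is not the same and the shares are not at a like cutoff. In 1 fit of loci and nuclear genes together, 354 loci outside the table were higher and 106 lower. All 2159 xat loci fitted were called higher, so the table appears to have been picked for that direction in these libraries. Leaving those loci out lowers the number of rises among the rest, and nothing is read from that number or from the median. It removed no fall, as no xat locus was called lower.

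The direction was also described by whether the genotypes overlapped in scaled CPM. That reading uses the same libraries and scaling as the fit and is no separate evidence. The genotypes did not overlap for 935 loci (28.7%) that lay higher in every xrn3-8 library and for 211 (6.47%) that lay lower in every one. Among all assembled loci fitted these shares were 56.9% and 3.89%. A raw p below 0.05 was reached by 982 of the 3263 loci outside the xat table, by 3141 of all 5422 assembled loci and by 8911 of 20501 nuclear genes. When the loci were scaled on themselves instead of on nuclear genes, the calls turned to 8 higher and 1017 lower, that is 0.78% instead of 80.7% of calls higher. That scaling moved the median nuclear gene to -0.95. A change of scaling shifts loci and genes together, so the direction of the loci is stated relative to nuclear genes only.

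**Figure D2:**
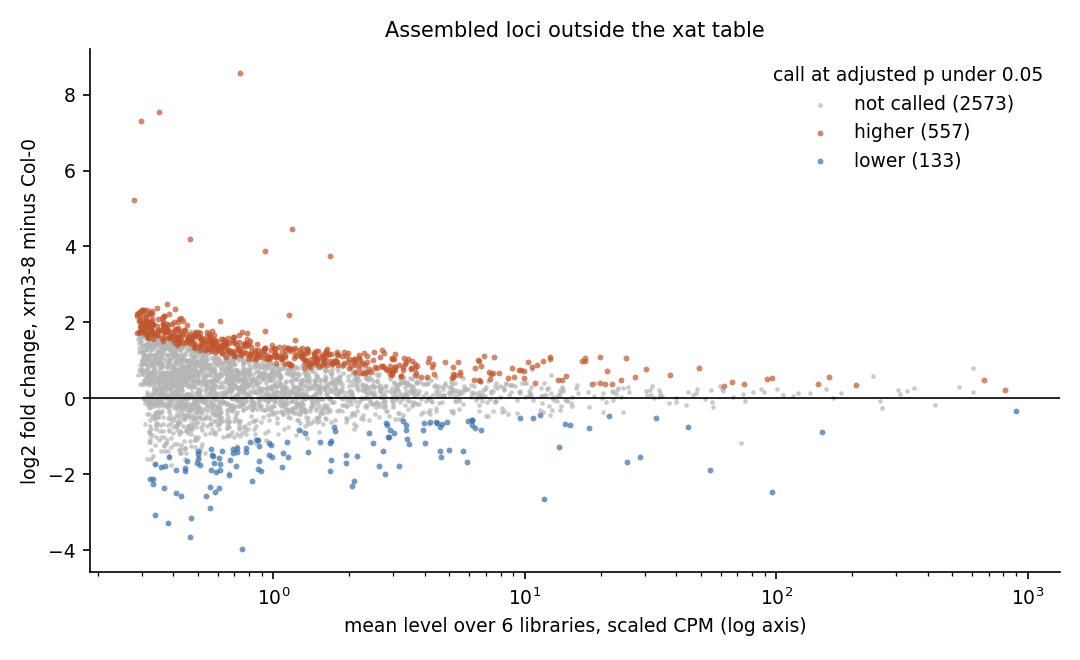
Mean scaled CPM over 6 libraries (horizontal, log axis) against the log2 fold change of xrn3-8 minus Col-0 (vertical) for 3263 loci outside the xat table, 1 point a locus, coloured by the call. The points thin out towards high counts, where most changes are small, and 8 points stand apart at log2 fold changes of 3.76 or more.

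The median change was smaller in groups of loci with more reads. The 1433 loci with sums of 60 to 119 had a median log2 fold change of 0.63, with 206 higher (14.4%) and 38 lower (2.65%). Of nuclear genes with such sums, 21.2% were called higher and 2.92% lower. In the next group, 992 loci with 120 to 299 counts, the median was 0.39. For 541 loci with 300 to 999 counts it was 0.25, and for 297 loci with 1000 or more it was 0.17. Nuclear genes in the same 4 groups had medians of 0.43, 0.27, 0.17 and -0.02, so a fall of the median with rising counts was present in genes as well. Among the 297 loci with most counts, 64 (21.5%) were called higher and 25 (8.42%) lower. Nuclear genes with as many counts were called higher in 15.6% of cases and lower in 20.2%. The shares of genes rest on a separate adjustment and are not at the cutoff of the loci.

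The best-covered loci outside the xat table rose less than any xat locus with as many counts. Their 64 rises ran from a log2 fold change of 0.23 to 1.11, and 8 of them reached 2-fold. The xat loci in the same count group, 44 in number, began at 1.19 and had a median of 3.26. No locus with 1000 or more counts outside the table thus rose as much as the least raised of those inside it. As the xat table appears to have been picked for rises in these libraries, this gap may only restate that choice. Nothing about the loci is read from it. At lower counts the 2 sets overlapped. In all, 319 of the 557 loci called higher had a log2 fold change of at least 1.19, the lowest value of any xat locus.

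**Figure D3:**
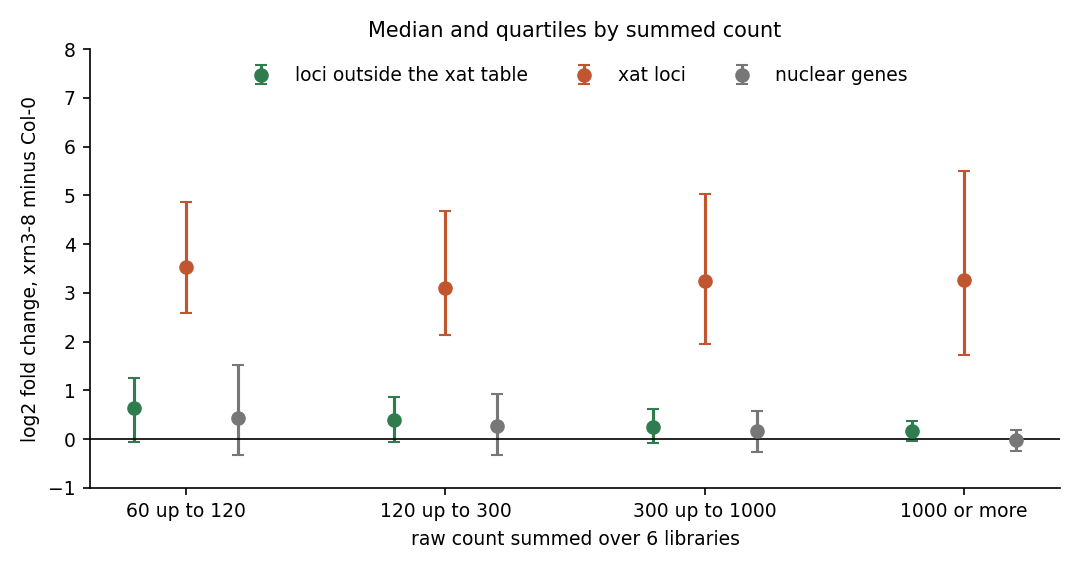
Log2 fold change of xrn3-8 minus Col-0 by the raw count summed over 6 libraries, for loci outside the xat table, xat loci and nuclear genes. Points are medians and bars run from the lower to the upper quartile. The loci outside the table go from a median of 0.63 to 0.17, close to the nuclear genes, while the medians of the xat loci stay above 3.

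The loci that fell were fewer. Of the 133, 96 fell at least 2-fold and 22 at least 4-fold, with a median log2 fold change of -1.43. Their median level was 1.99 scaled CPM in Col-0 and 0.747 in xrn3-8, and 118 of them had no overlap between the genotypes. None of them was at 0 counts over the xrn3-8 libraries. Of the 133, 68 were called lower in each of the 6 fits without 1 library. In single fits the number of lower loci ran from 93 without Col-0 replicate 3 to 144 without xrn3-8 replicate 2.

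The largest fall by log2 fold change under the rule for named loci was that of XLOC_003953. The Col-0 libraries gave 17, 69 and 41 counts, the xrn3-8 libraries 5, 4 and 0. Its scaled CPM was 0.558, 2.20 and 1.46 in Col-0, against 0.166, 0.105 and 0 in xrn3-8. Every xrn3-8 library lay below every Col-0 library, but the Col-0 libraries themselves differed several-fold. The log2 fold change was -3.96 (SE 0.70, edgeR adjusted p = 0.000128), and it ran from -4.64 to -3.37 with 1 library left out.

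XLOC_000917 was next and rested on more reads. Its counts were 456, 563 and 812 for Col-0, against 94, 136 and 113 for xrn3-8. That is 15.0, 17.9 and 28.9 scaled CPM against 3.12, 3.57 and 3.04. The xrn3-8 libraries were close to each other, and the groups were far apart. Its log2 fold change was -2.67 (SE 0.22, edgeR adjusted p = 2.88e-08), and it lay between -2.85 and -2.34 with 1 library left out.

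The third fall had the most reads among the 10 largest. It stood at 164, 167 and 158 scaled CPM in Col-0, against 28.3, 34.8 and 24.4 in xrn3-8. Replicates differed little in either group, and the log2 fold change was -2.48 (SE 0.14, edgeR adjusted p = 3.97e-10). The falls ranked 4 to 10 had log2 fold changes from -2.36 to -1.91, with Col-0 means between 1.02 and 4.45 scaled CPM and xrn3-8 means between 0.194 and 1.13. For the sixth of these 10 the Col-0 values were 1.02, 1.50 and 1.53 scaled CPM and the xrn3-8 values 0.265, 0.315 and 0.296. For the seventh they were 3.06, 3.15 and 4.10 against 0.597, 0.918 and 0.726. All 10 of these falls were called lower in every one of the 17 alternatives that fitted them.

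**Figure D4:**
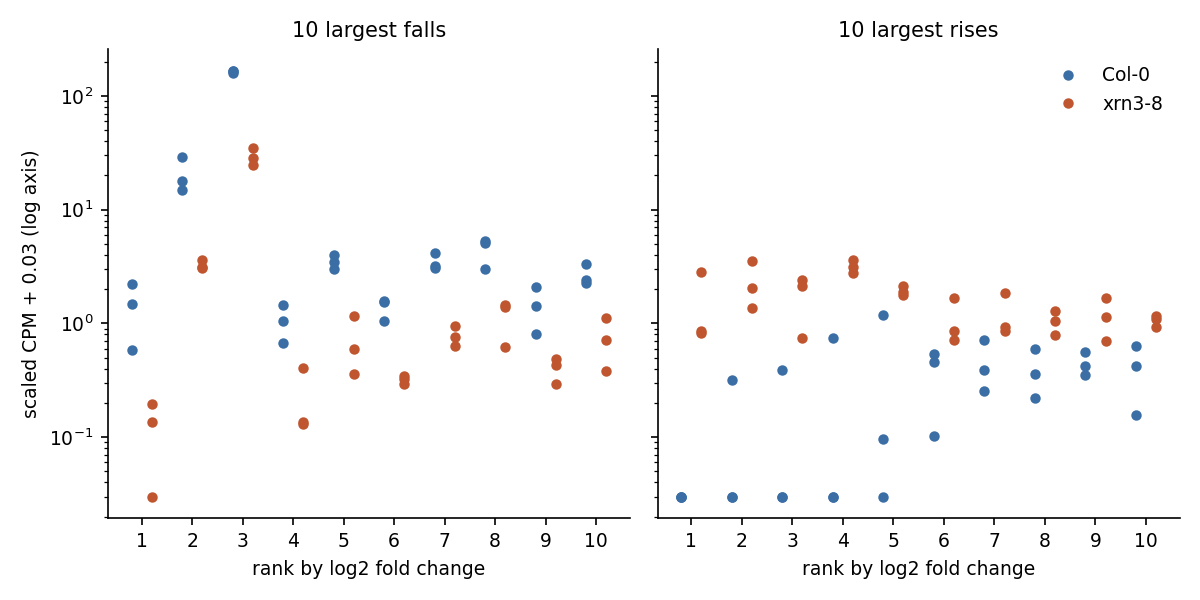
Scaled CPM plus 0.03 (log axis) of the 10 largest falls (left) and the 10 largest rises (right), ranked by log2 fold change among called loci with no overlap between the genotypes and a mean of at least 1 scaled CPM in the higher group. Each point is 1 library, blue for Col-0 and orange for xrn3-8, and points at the bottom are libraries with 0 counts. The falls keep the genotypes apart at levels from about 1 to over 100, whereas the rises ranked 1 to 5 hold 0 counts in 1 to 3 of the Col-0 libraries.

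Falls also occurred among loci with many reads. The loci of this paragraph were chosen by their Col-0 level after their values had been seen. Of the 25 called lower with a sum of 1000 or more, 22 had no overlap between the genotypes, and their log2 fold changes ran from -2.67 to -0.32. After the fall ranked 3, the next by Col-0 level among those that fell at least 2-fold went from 85.5 ± 8.42 to 23.0 ± 4.72 scaled CPM (SD, n = 3), or -1.89 on the log2 scale (SE 0.16, edgeR adjusted p = 2.47e-08). It was followed by a locus that went from 42.8 ± 4.67 to 14.5 ± 0.507 scaled CPM, at -1.56 (SE 0.14, edgeR adjusted p = 9.55e-08). A further one went from 38.8 ± 5.85 to 12.1 ± 2.46 scaled CPM, at -1.68 (SE 0.17, edgeR adjusted p = 3.52e-07). Each of these kept its call in all 17 alternatives.

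Among the rises outside the xat table, 8 loci stood apart from the rest. Their log2 fold changes were 3.76 or more, and the next highest was 2.49. Each of the 8 had 0 counts in at least 2 of the Col-0 libraries, and their summed counts were low, from 60 to 349. The genotypes overlapped in those with xrn3-8 counts of 0, 36 and 31, of 10, 0 and 49 and of 49, 1 and 38. These rises were thus not present in every xrn3-8 library. Over all 557 rises the median log2 fold change was 1.27, and 408 reached 2-fold. Only 101 of the 557 were called higher in each of the 6 fits without 1 library. These values are descriptions, because the loci were chosen on the same contrast.

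XLOC_006616 had the largest rise. It held 0 counts in all 3 Col-0 libraries and 84, 30 and 31 in xrn3-8, or 2.78, 0.787 and 0.834 scaled CPM. Against a floor of 3 counts over the Col-0 group, and per effective library size, it was at least 41.2-fold higher in xrn3-8. The xrn3-8 libraries differed severalfold among themselves, with replicate 1 the highest.

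XLOC_009307 followed, and its Col-0 reads came from 1 library. Its counts were 0, 9 and 0 for Col-0, against 61, 51 and 129 for xrn3-8. The scaled CPM was 0, 0.287 and 0 against 2.02, 1.34 and 3.47. The ratio of the summed counts, each divided by the summed effective library sizes of its group, was 22.8. Its fitted log2 fold change was 4.47 and became 9.23 without Col-0 replicate 2, the library with those reads. That second value compares with a group at 0 counts and is no bound.

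The same pattern of a lone Col-0 library came back in the next ranks. The third rise had 0, 0 and 10 counts in Col-0, against 64, 27 and 88 in xrn3-8, the fourth 0, 0 and 20 against 93, 104 and 132. Their fitted log2 fold changes of 3.89 and 3.76 became 8.86 and 9.71 without Col-0 replicate 3. The fifth had 2, 36 and 0 counts against 56, 66 and 78, and its value of 2.19 became 5.65 without Col-0 replicate 2. In these 3 loci the xrn3-8 libraries all had reads, while 1 Col-0 library held nearly all reads of its group. With DESeq2 their adjusted p was 0.072, 0.126 and 0.255, above the threshold. The rises ranked 6 to 10 had log2 fold changes between 1.45 and 1.61 and lost their call in 1 to 3 of the 6 fits without 1 library. Of the 10 largest rises, 2 were called higher in every one of the 17 alternatives that fitted them.

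Rises of 2-fold among well-covered loci were close to 2-fold throughout. The one with the highest xrn3-8 level, chosen after the values were seen, gave 529, 494 and 451 counts for Col-0, against 984, 1297 and 1343 for xrn3-8. Its mean went from 16.4 ± 0.870 to 34.2 ± 1.76 scaled CPM (SD, n = 3), or 1.06 on the log2 scale (SE 0.14). The next went from 12.8 ± 0.937 to 27.1 ± 5.79 scaled CPM, at 1.09 (SE 0.17). Under scaling on the loci themselves these log2 fold changes were 0.09 and 0.13 and their calls were lost.

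The 4 loci with the highest mean scaled CPM changed by less than 1.5-fold, and 3 of them were called. The first had 963, 1075 and 946 scaled CPM in Col-0, against 710, 901 and 772 in xrn3-8, a log2 fold change of -0.32 (SE 0.10, edgeR adjusted p = 0.0141). This small fall no longer passed with total counts (-0.18, adjusted p = 0.15), with DESeq2 (adjusted p = 0.054), without Col-0 replicate 2 (0.121) or without xrn3-8 replicate 3 (0.057). The second had 739, 763 and 752 scaled CPM against 898, 894 and 843, at 0.23 (SE 0.09, edgeR adjusted p = 0.0462), and lost its call in 5 of the 6 fits without 1 library. This call was also lost with TMM factors from all genes (edgeR adjusted p = 0.054), with RLE factors (0.051) and with DESeq2 (0.143). The same held with edgeR's own count filter (0.061) and with a limit of 120 counts (0.057). The third had 528, 584 and 559 against 971, 671 and 701, at 0.49 (SE 0.12), with xrn3-8 replicate 1 well above the other libraries. Scaled on the loci themselves, the second and the third stood at -0.74 and -0.48. The fourth had 592, 571 and 554 against 714, 609 and 601 scaled CPM, at 0.16 (SE 0.10), and was not called.

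Replicates of the well-covered loci were mostly close, with 3 exceptions. Of 170 loci with a mean of at least 10 scaled CPM, 140 stayed within 1.5-fold between replicates in both genotypes, and 3 differed over 10-fold within Col-0. The fifth locus by mean scaled CPM was one of them, at 375, 925 and 23.3 scaled CPM in Col-0, against 1070, 493 and 746 in xrn3-8. A locus with the preceding identifier number followed it, at 170, 407 and 7.02 against 398, 205 and 270 scaled CPM. Both were lowest in Col-0 replicate 3 and high in Col-0 replicate 2 and xrn3-8 replicate 1. The third ran the other way, at 117, 15.8 and 168 in Col-0, against 24.9, 79.6 and 29.5 in xrn3-8, with Col-0 replicate 3 the highest. Their log2 fold changes were 0.80 (SE 0.63), 0.58 (SE 0.66) and -1.17 (SE 0.51). None of the 3 was called, although the first reached 1.95 (edgeR adjusted p = 0.0171) without Col-0 replicate 2. The genotypes overlapped in each. Col-0 replicate 3 is also the library with the seed transcripts named above, and what sets these libraries apart was not tested.

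**Figure D5:**
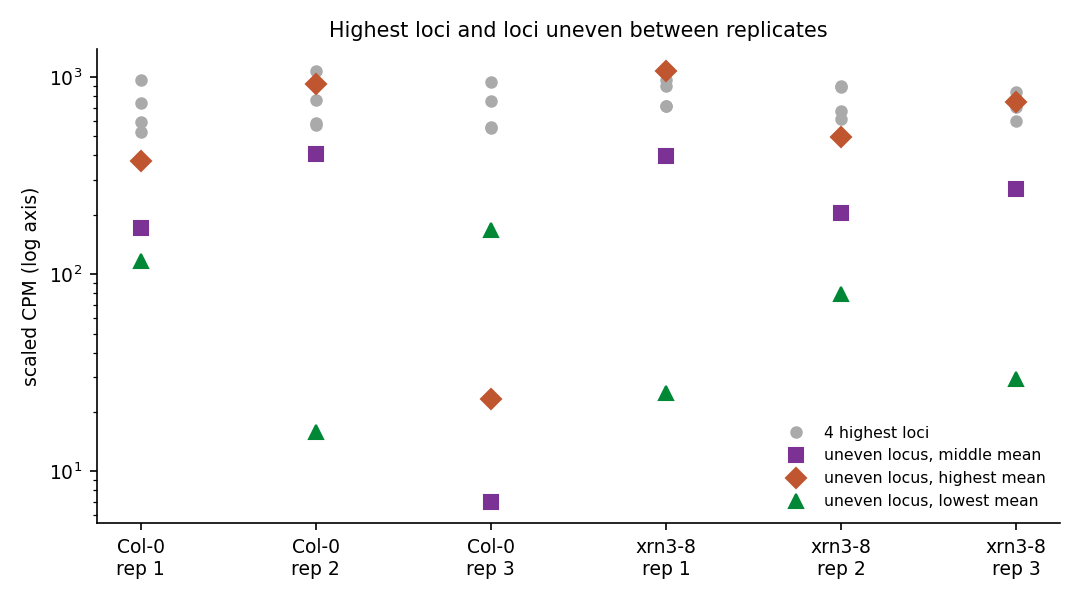
Scaled CPM (log axis) in each of the 6 libraries for the 4 loci with the highest mean level (grey circles) and the 3 loci that differed over 10-fold between Col-0 replicates (coloured symbols). The diamonds drop to 23.3 and the squares to 7.02 in Col-0 replicate 3, where the triangles peak at 168.

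The identifiers numbered above the last one in the xat table form a block that is outside it by definition. The highest identifier number in that table was 9493, and 98 assembled loci had higher numbers, up to 9592. Of these, 90 had a sum of at least 60, and they held 25.1% of all counts of the loci outside the table. Their median level was 5.12 scaled CPM and their median log2 fold change 0.12, with 3 called higher and 0 lower by edgeR, against 17.1% and 4.08% of all 3263 loci and 50.1% and 2.45% of all assembled loci. The block includes 2 of the 5 loci with the highest mean scaled CPM, the second and the fourth. It also holds 34 of the 170 loci that reached 10 scaled CPM. It was noticed after the values were seen and has no test.

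The counts of annotated genes differed between the tables that hold the assembled loci and a second set that holds flanking windows in their place. In the tables with the loci, reads assigned to more than 1 feature numbered 2149454 to 2965315 per library. In the tables with windows they numbered 1068371 to 1585575. Of 20871 genes with at least 60 counts in the latter, 2070 had at least 10% fewer counts in the tables with the loci, and 350 had at least 50% fewer. The loci were added and the windows removed at once, so these differences cannot be told apart by source. Reads tallied as falling on more than 1 feature enter neither the count of a locus nor that of a gene.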

How the data were processed

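Stranded total RNA-seq was measured in 3 Col-0 and 3 xrn3-8 libraries. The deposited values are raw read counts per gene and per assembled locus. The submitters' processing notes name HISAT2, HTSeq, DESeq2 and bedtools and the TAIR10 genome; no source used here gives versions, settings, the assembler or the rule behind the xat table. Small RNA tables cover xat loci and genes only, so they gave locus names and no values here.

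Rows that name no feature were left out; reads with no feature were 7.47% to 10.3% of tallied reads. The test was edgeR 4.0.16 (R 4.3.3), two-sided quasi-likelihood, on 5422 assembled loci with a summed count of at least 60, with library sizes and TMM factors from nuclear genes and Benjamini-Hochberg adjustment at 0.05. Scaled CPM are counts per 1000000 effective nuclear gene counts. The scripts were tested on simulated data. Named loci were called, had no overlap between genotypes and a mean of at least 1 scaled CPM in the higher group; the 2 largest changes each way carry identifiers, the next 8 a rank, and the 5 highest levels a rank. Alternatives were other scalings, count limits, DESeq2 1.42.0, a joint fit with genes, a replicate block and leaving out each library. Members and lists were chosen with earlier results of these data known. The floor of 3 counts covers counting error only.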

Additional observations from a re-analysis of the deposited data

How the results depend on the processing

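The number of loci called lower stayed within 1.5 times of 133 in 15 of 17 alternatives, and the number called higher, 557, in 6 of 17. Library scaling mattered most. With total counts, 868 loci were higher and the median log2 fold change was 0.54. Scaled on the loci themselves, 1017 were lower and 8 higher, with a median of -0.57. The count limit changes which loci are fitted or counted: at 30 counts 991 were higher and the median was 0.62, at 120 counts 336 were higher, 87 were lower and the median was 0.28, and with edgeR's own filter, which 219 of the loci do not pass, the median was 0.35. In 1 fit with the nuclear genes, which changes the p-value adjustment, 354 were higher and 106 lower. DESeq2 called 442 higher and 114 lower. Without 1 library in turn, 246 to 488 loci were higher, the fewest without xrn3-8 replicate 3; the number was 307 without Col-0 replicate 1, 347 without Col-0 replicate 2, 371 without Col-0 replicate 3 and 346 without xrn3-8 replicate 1. The lower loci numbered 93 to 144 and the median was 0.36 to 0.41. Deviations of same-numbered libraries correlated at 0.06, 0.16 and 0.13 over nuclear genes, so not every pair passed 0.1 and the numbers were not taken as pairs. The 6 differently numbered pairs lay at -0.14 to 0.02. Deviations were taken from each genotype's mean, which pushes these pairs down when the same-numbered ones are up. Their lower values thus add nothing, and the same-numbered values are at most a hint from the data and not the design. Over the loci outside the xat table, same-numbered libraries correlated at -0.02, -0.03 and 0.05. The differently numbered pairs ran from -0.04 to 0.06 there. With the replicate block, 368 loci were higher and 125 lower, and the fifth locus by mean level, uneven between Col-0 replicates, reached a log2 fold change of 1.75 (edgeR adjusted p = 0.0387). Of the 133 lower loci, 66 were called lower under every alternative other than the limits of 30 and 120 counts. A locus dropped by edgeR's own filter counts as not called there. Depth limits what could be detected in the 2042 loci under 1 scaled CPM.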
